A study of Homo sapiens with 18 samples.

Results

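AXL, TYRO3 and MERTK are the TAM receptors, a family of 3 receptor tyrosine kinases, and GAS6 and PROS1 are their 2 ligands. These 5 genes were read from the probe sets that the array's annotation assigns to 1 symbol only, which gave 10 probe sets of the 41091 with 1 symbol, and 5 of 19775 genes. The set was selected on measured values of these same arrays, around AXL, so AXL levels and changes are given as a description with no test. TYRO3, MERTK, GAS6 and PROS1 are given with the test across all genes. They and the gene lists below were also chosen with earlier results of these data known. Their p-values and counts are therefore not independent of that choice.

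The arrays compared 6 groups of human prostate cancer cells with 3 arrays each. CWR22Rv1 cells were transfected with Stat5a/b siRNA, Stat3 siRNA or scramble siRNA, and DU145 cells with the same 3 reagents, all with Lipofectamine 2000 in serum-supplemented medium, and RNA was taken at 48 h. Stat5a and Stat5b were targeted together, so an effect of one cannot be told apart from an effect of the other. CWR22Rv1 is an established line derived from a prostate cancer xenograft, and DU145 is an established line derived from a prostate cancer metastasis. The study's title sets genes regulated by Stat5a/b beside those regulated by Stat3. The labels state that each group was done in triplicate without pooling but not that the triplicates were separate cultures. The p-values here measure the spread among these arrays and nothing wider, and that spread may be technical.

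TAM receptors carry immunoglobulin-like and fibronectin-like domains outside the cell and a kinase inside it. GAS6 and protein S, the product of PROS1, carry an amino-terminal Gla domain that becomes able to bind exposed phosphatidylserine after vitamin K-dependent carboxylation, and their carboxy-terminal domains bind the receptors. GAS6 binds all the TAM receptors and protein S binds TYRO3 and MERTK, and the family is known for the clearance of dying cells and, for AXL, for invasive and drug-tolerant states of carcinoma cells.

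The siRNA targets are given first as a check of the labels. STAT3 ranged from 6.04 to 6.31 (log2 value) on the CWR22Rv1 Stat3 siRNA arrays and from 7.21 to 7.40 on the CWR22Rv1 scramble arrays, and from 9.19 to 9.45 on the DU145 Stat3 siRNA arrays and from 10.82 to 10.96 on the DU145 scramble arrays. STAT5B ranged from 6.90 to 7.17 on the CWR22Rv1 Stat5a/b siRNA arrays and from 7.87 to 8.005 on the CWR22Rv1 scramble arrays, and from 6.61 to 6.80 on the DU145 Stat5a/b siRNA arrays and from 7.95 to 8.16 on the DU145 scramble arrays. STAT5A had log2 changes of -0.34 in CWR22Rv1 and -0.30 in DU145 with Stat5a/b siRNA, which did not pass (limma adjusted p = 0.146 and 0.101). The mean of 4 epithelial markers (KRT8, KRT18, EPCAM, CDH1) lay between 10.8 and 11.7 on all arrays, and that of 5 macrophage and leukocyte markers between 4.01 and 4.49. Of these 5, PTPRC averaged 2.96 to 3.16 in the 6 groups and CSF1R 5.45 to 5.77. CD14 averaged 6.12 in DU145 scramble cells and 4.31 in CWR22Rv1 scramble cells. In DU145 CD14 was lower with Stat5a/b siRNA (-0.96, limma adjusted p = 0.000161) and with Stat3 siRNA (-1.09, limma adjusted p = 7.18e-05). Array medians were 5.16 to 5.20, and the median of all values was 5.18. Arrays of a group correlated across probe sets at 0.993 to 0.998.

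RefSeq promoter sequences (GRCh38.p14) matched all 5 genes, with 7 transcription starts. The 250 bases upstream of the first AXL start and of the PROS1 start are shown because AXL is the gene the set was built around and PROS1 is the ligand whose level fell with Stat5a/b siRNA in DU145. The AXL window lies at chr19:41218973-41219222 on the plus strand and the PROS1 window at chr3:93973897-93974146 on the minus strand, both written 5′ to 3′ in the direction of transcription. Capitals mark matches to the STAT motif TTCNNNGAA and to the SP1 motif GGGCGG, each searched on both strands.
AXL: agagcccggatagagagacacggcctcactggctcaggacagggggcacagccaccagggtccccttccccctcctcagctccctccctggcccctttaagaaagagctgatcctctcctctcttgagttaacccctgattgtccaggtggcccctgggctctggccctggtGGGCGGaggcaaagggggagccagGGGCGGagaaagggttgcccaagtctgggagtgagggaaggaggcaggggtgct
PROS1: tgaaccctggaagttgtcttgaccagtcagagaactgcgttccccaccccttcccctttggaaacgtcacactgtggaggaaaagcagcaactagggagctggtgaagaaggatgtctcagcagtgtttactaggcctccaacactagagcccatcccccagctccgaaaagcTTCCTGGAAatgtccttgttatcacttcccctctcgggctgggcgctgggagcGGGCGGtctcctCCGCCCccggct
The AXL window held 2 SP1 matches, 78 and 54 bases before the start, and no match to the STAT motif. The PROS1 window held TTCCTGGAA, a STAT match 77 bases before the start, and 2 SP1 matches. Of 35116 RefSeq promoter windows of the same length, 6.57% held a STAT match and 42.6% an SP1 match. None of the other 6 starts of the set had a STAT match in this window. These matches describe the letters only, and binding was not measured.

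AXL was high on all DU145 arrays and low on all CWR22Rv1 arrays, and the 2 AXL probe sets gave different pictures of CWR22Rv1. On probe set 202686_s_at, which stands for the gene because its mean is the higher of the 2 AXL probe sets, AXL read 3.27, 4.03 and 3.36 with Stat5a/b siRNA, 3.55, 3.62 and 3.32 with Stat3 siRNA, and 5.11, 4.93 and 5.06 with scramble siRNA in CWR22Rv1 (log2 values). Every CWR22Rv1 array that received a STAT siRNA was below every CWR22Rv1 scramble array, and the 2 siRNA groups overlapped. In DU145 the same probe set read 11.35, 11.27 and 11.68 with Stat5a/b siRNA, 12.31, 12.22 and 11.68 with Stat3 siRNA, and 12.22, 12.33 and 11.59 with scramble siRNA. The scramble array at 11.59 lay below the highest Stat5a/b array, so these groups overlapped, and the Stat3 and scramble groups overlapped over most of their range.

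**Figure D1:**
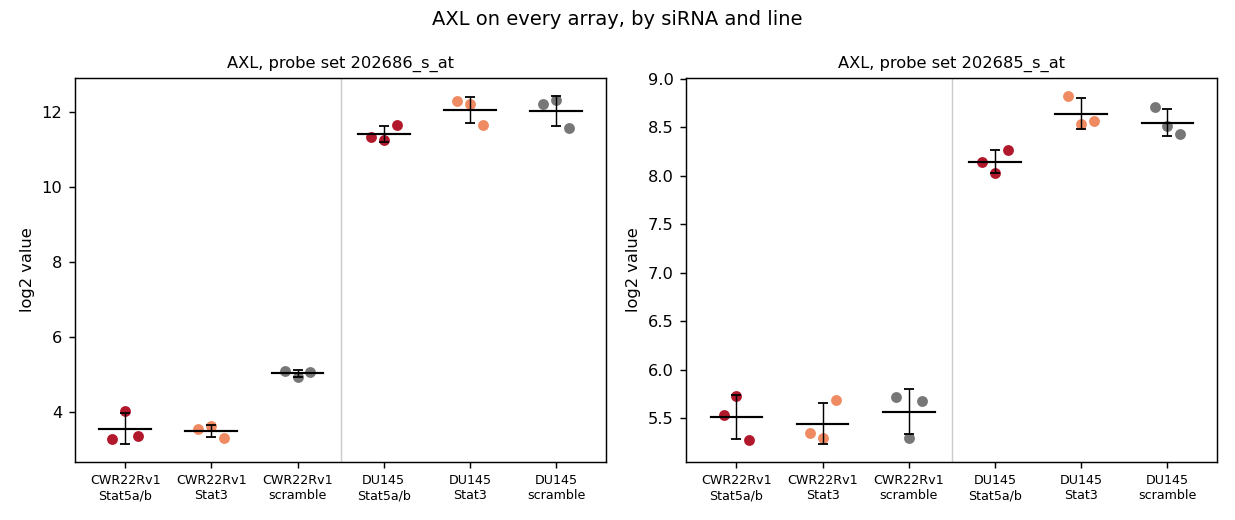
Log2 value of AXL on each of the 18 arrays for both of its probe sets, with the group mean (line) and SD (bar); n = 3 arrays per group. On 202686_s_at the CWR22Rv1 arrays sit between 3.27 and 5.11 and the DU145 arrays between 11.27 and 12.33, and the low CWR22Rv1 values with both STAT siRNAs are absent from 202685_s_at.

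The AXL log2 change against scramble in CWR22Rv1 was -1.48 with Stat5a/b siRNA (SE 0.22) and -1.54 with Stat3 siRNA (SE 0.22). In DU145 it was -0.62 with Stat5a/b siRNA (SE 0.22), 65.3% of the scramble level, and 0.025 with Stat3 siRNA (SE 0.22). Without the scramble array at 11.59, the third replicate, the DU145 Stat5a/b change was -0.84 and the DU145 Stat3 change was -0.20. Those are the lowest values over the alternatives, and the highest were -0.47 for Stat5a/b siRNA and 0.22 for Stat3 siRNA. The third Stat3 array, at 11.68, was also the lowest of its group. Same-numbered Stat3 and scramble arrays were taken as paired in DU145, so leaving out the scramble array alone breaks a pair. Set against Stat3 siRNA directly, Stat5a/b siRNA gave an AXL change of 0.061 in CWR22Rv1 and of -0.64 in DU145, where the nearest arrays of the groups both read 11.68. The Stat3 effect in CWR22Rv1 minus that in DU145 was -1.56, and the Stat5a/b effect in CWR22Rv1 minus that in DU145 was -0.86 (SE 0.31 each). All comparisons within a line that are made against scramble share the same 3 scramble arrays.

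The second AXL probe set, 202685_s_at, did not show the CWR22Rv1 difference. It read 5.53, 5.73 and 5.28 with Stat5a/b siRNA, 5.35, 5.29 and 5.68 with Stat3 siRNA, and 5.72, 5.30 and 5.68 with scramble siRNA in CWR22Rv1, so all 3 groups overlapped, with changes of -0.055 and -0.12 for Stat5a/b and Stat3 siRNA (SE 0.14). In DU145 it read 8.15, 8.03 and 8.27 with Stat5a/b siRNA, 8.83, 8.53 and 8.57 with Stat3 siRNA, and 8.71, 8.51 and 8.43 with scramble siRNA. Here the Stat5a/b arrays lay below all arrays of the other DU145 groups, with a change of -0.40 against scramble (SE 0.14), 75.7% of the scramble level. Both probe sets therefore read lower AXL with Stat5a/b siRNA in DU145, and they disagreed on CWR22Rv1, where both lay near or below the median of all values. Why the probe sets disagreed was not tested.

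TYRO3, a receptor that both ligands bind, passed no comparison against scramble, and was lower with Stat5a/b than with Stat3 siRNA in DU145. On 211432_s_at it read 7.15, 7.11 and 7.11 with Stat5a/b siRNA, 7.68, 7.26 and 7.41 with Stat3 siRNA, and 7.31, 7.28 and 7.32 with scramble siRNA in DU145. All Stat5a/b arrays lay below all arrays of the other 2 groups, and the array at 7.68 set the wide spread of the Stat3 group. The difference of Stat5a/b from Stat3 siRNA was -0.32 (SE 0.079, limma adjusted p = 0.00697; 0.0692 with DU145 fitted alone). Against scramble the changes were -0.18 with Stat5a/b siRNA (adjusted p = 0.114, limma) and 0.14 with Stat3 siRNA (adjusted p = 0.259, limma). Without the Stat3 array at 7.26, the second replicate, the change with Stat3 siRNA was 0.24 and passed (limma adjusted p = 0.0328). The second TYRO3 probe set, 211431_s_at, had a Stat5a/b change of -0.37 against scramble (adjusted p = 0.104, limma) and a difference from Stat3 siRNA of -0.30 (adjusted p = 0.200, limma). In CWR22Rv1, TYRO3 read 7.75, 7.84 and 7.76 with Stat5a/b siRNA, 7.79, 7.84 and 7.75 with Stat3 siRNA, and 7.73, 7.77 and 7.73 with scramble siRNA, and the groups overlapped.

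MERTK, the receptor best known from macrophages and from retinal pigment epithelium, passed no siRNA comparison. On 206028_s_at it read 6.61, 6.66 and 7.06 with Stat5a/b siRNA, 6.77, 6.74 and 6.92 with Stat3 siRNA, and 6.50, 6.36 and 7.0005 with scramble siRNA in DU145. The third replicate was the highest of each DU145 group. In CWR22Rv1 it read 6.04, 6.42 and 5.98 with Stat5a/b siRNA, 6.16, 6.20 and 6.21 with Stat3 siRNA, and 6.25, 6.12 and 6.23 with scramble siRNA. The 4 changes against scramble lay between -0.055 and 0.19 with an SE of 0.15, and their limma adjusted p between 0.486 and 0.989. Of the other 2 MERTK probe sets, 211912_at stayed between 2.82 and 3.46 on all arrays and 211913_s_at between 5.07 and 6.09.

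GAS6, the ligand of all 3 receptors, passed no siRNA comparison. On 1598_g_at it read 7.11, 7.22 and 7.23 with Stat5a/b siRNA, 6.95, 6.93 and 6.92 with Stat3 siRNA, and 6.97, 7.11 and 7.05 with scramble siRNA in CWR22Rv1. These 3 groups did not overlap, with the scramble arrays between the siRNA groups. The difference of Stat5a/b from Stat3 siRNA was 0.25 (SE 0.079, limma adjusted p = 0.0504), while the second probe set, 202177_at, gave 0.020 (adjusted p = 0.972, limma). With CWR22Rv1 fitted alone the first probe set passed (limma adjusted p = 0.00977). The GAS6 changes against scramble in CWR22Rv1 were 0.14 with Stat5a/b siRNA and -0.11 with Stat3 siRNA (limma adjusted p = 0.385 and 0.559). In DU145, GAS6 read 9.11, 9.05 and 9.02 with Stat5a/b siRNA, 9.27, 9.09 and 9.31 with Stat3 siRNA, and 9.15, 8.97 and 9.31 with scramble siRNA, and the groups overlapped.

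PROS1 encodes protein S, a ligand of TYRO3 and MERTK that also acts as an anticoagulant cofactor in plasma. It fell with Stat5a/b siRNA in DU145, the 1 member of the 4 tested that passed there. PROS1 read 9.18, 9.12 and 8.99 with Stat5a/b siRNA, 9.18, 9.21 and 9.20 with Stat3 siRNA, and 9.38, 9.40 and 9.39 with scramble siRNA. All 6 arrays with a STAT siRNA lay below the 3 scramble arrays, which ranged from 9.38 to 9.40. The change was -0.29 with Stat5a/b siRNA (SE 0.064, limma adjusted p = 0.00304), 81.8% of the scramble level, and -0.19 with Stat3 siRNA (SE 0.064, limma adjusted p = 0.0542; 0.0281 with dim genes left out). In this comparison same-numbered arrays deviated together, and once the fit held the replicate number as a block PROS1 fell (limma adjusted p = 0.0473). In CWR22Rv1, PROS1 read 8.80, 8.74 and 8.66 with Stat5a/b siRNA, 8.75, 8.59 and 8.77 with Stat3 siRNA, and 8.87, 8.79 and 8.80 with scramble siRNA. Those changes were -0.087 and -0.12 for Stat5a/b and Stat3 siRNA and did not pass (limma adjusted p = 0.561 and 0.383). PROS1 has a near-identical pseudogene, and hybridisation of its transcripts to this single probe set cannot be told apart from PROS1.

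**Figure D2:**
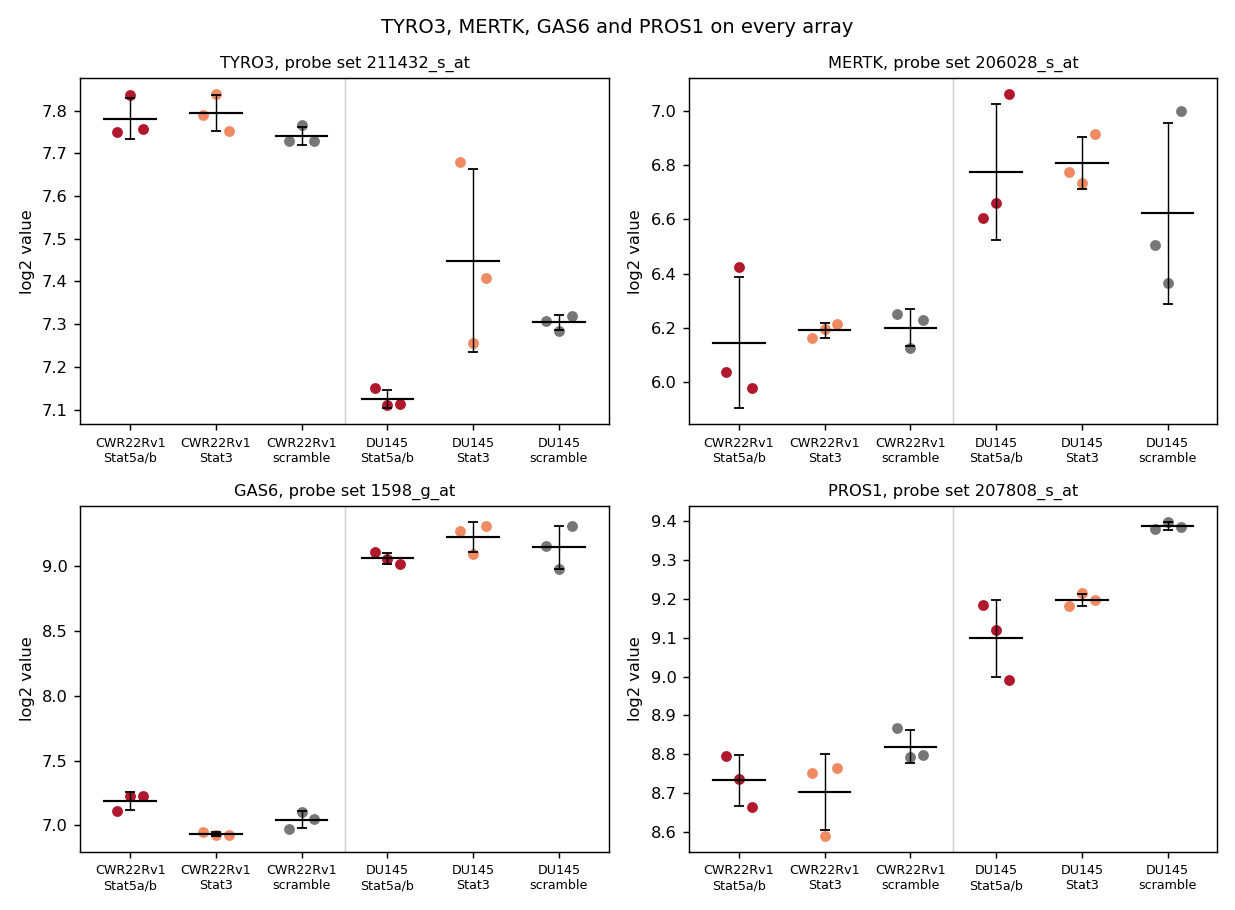
Log2 value of TYRO3, MERTK, GAS6 and PROS1 on each of the 18 arrays, for the probe set that stands for each gene, with the group mean (line) and SD (bar); n = 3 arrays per group and each panel has its own scale. The PROS1 scramble arrays of DU145 sit at 9.38 to 9.40, above the 6 arrays with a STAT siRNA in that line.

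Counts of members are set beside the share of all genes that passed the same comparison. At a limma adjusted p under 0.05, 0 of the 4 tested members passed with Stat5a/b siRNA in CWR22Rv1 (6.46% of all genes) and 0 of 4 with Stat3 siRNA there (4.77% of all genes). In DU145, 1 of 4 passed with Stat5a/b siRNA, where 24.3% of all genes passed, and 0 of 4 with Stat3 siRNA, where 15.8% passed. With the replicate block 1 of 4, PROS1, passed with Stat3 siRNA in DU145, where 18.4% of all genes passed. The list counts below for that comparison come from the fit without the block. Between the siRNAs, 0 of 4 passed in CWR22Rv1 (10.8% of all genes) and 1 of 4 in DU145 (22.1% of all genes). The median log2 change of the 4 members with Stat5a/b siRNA in DU145 was -0.13, beside 0.011 over all genes, and with Stat3 siRNA it was 0.11 beside 0.0056. Non-overlap of the siRNA and scramble arrays occurred for 31.1% of all genes with Stat5a/b siRNA in CWR22Rv1, where GAS6 showed it, and for 32.3% with Stat3 siRNA there, where GAS6 and PROS1 did. It occurred for 34.4% of all genes with Stat5a/b siRNA in DU145, where TYRO3 and PROS1 showed it, and for 26.2% with Stat3 siRNA, where PROS1 did. At an unadjusted limma p under 0.05, 0 of 4 passed with either siRNA in CWR22Rv1, 2 of 4 with Stat5a/b siRNA and 1 of 4 with Stat3 siRNA in DU145, and 1 of 4 between the siRNAs in each line. The share of all genes at that unadjusted level is not given here, so nothing is read from these last counts.

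**Figure D3:**
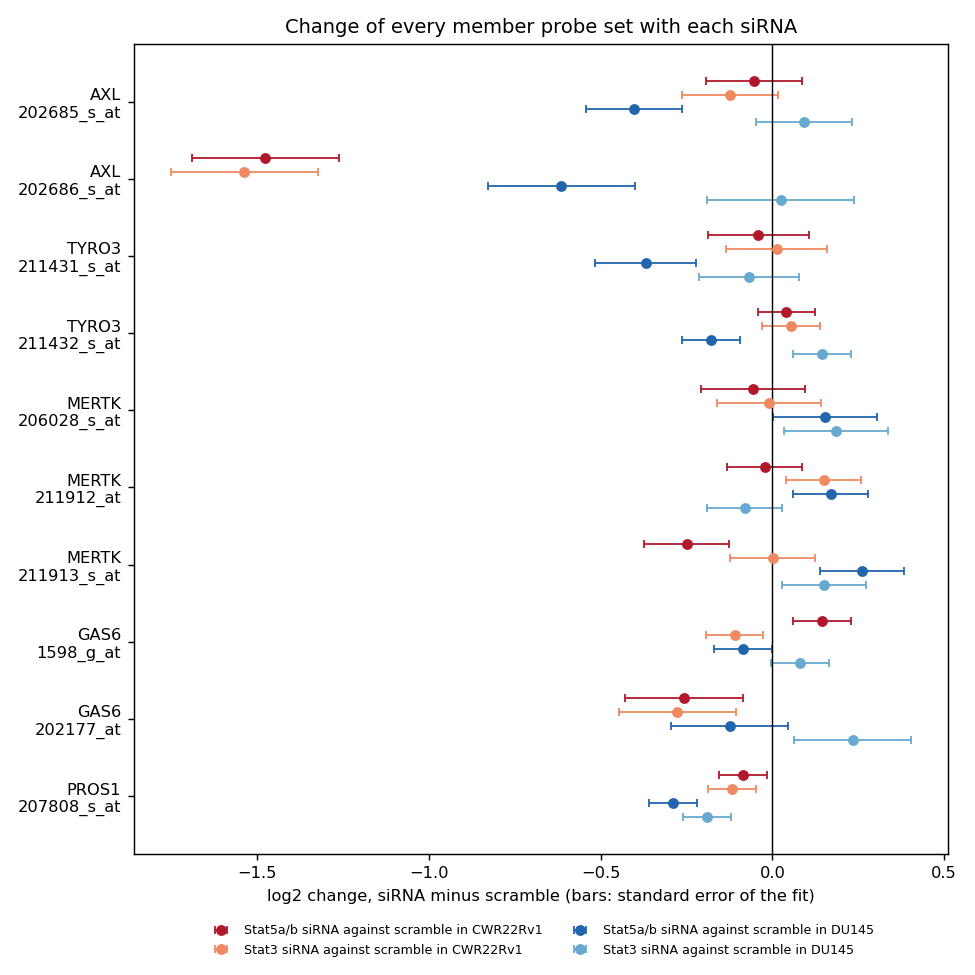
Log2 change against scramble, with the standard error of the limma fit as bars, for all 10 probe sets of the 5 genes and the 4 siRNA comparisons. AXL 202686_s_at lies at -1.48 and -1.54 in CWR22Rv1, outside the range of every other probe set of the set, and both AXL probe sets lie below 0 with Stat5a/b siRNA in DU145.

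The lines themselves differed at all 4 tested members, against a background in which 56.9% of all genes passed between the scramble groups. AXL on 202686_s_at averaged 5.03 ± 0.094 in CWR22Rv1 and 12.05 ± 0.40 in DU145 scramble cells (SD, n = 3 each), a log2 difference of -7.02, and on 202685_s_at the difference was -2.98. The probe sets thus differed widely on its size, and with CWR22Rv1 near the median of all values no fold is given for AXL. GAS6 was 4.29-fold lower in CWR22Rv1, averaging 7.04 ± 0.066 there and 9.14 ± 0.17 in DU145 (log2 difference -2.10, limma adjusted p = 3.72e-13), and its probe set 202177_at gave a difference of -3.32. PROS1 differed by -0.57 (limma adjusted p = 5.72e-07) and averaged 8.82 ± 0.042 in CWR22Rv1 and 9.39 ± 0.0098 in DU145. TYRO3 was the member that was higher in CWR22Rv1, by 0.44 (limma adjusted p = 0.000125), with 7.74 ± 0.021 there and 7.30 ± 0.018 in DU145, and its second probe set gave 0.26 and did not pass (limma adjusted p = 0.164). In its main probe set MERTK averaged 6.20 ± 0.068 in CWR22Rv1 and 6.62 ± 0.33 in DU145, a difference of -0.42 (limma adjusted p = 0.0243), and its other probe sets gave 0.10 and -0.25, neither of which passed. It also did not pass without the DU145 scramble array of the third replicate, with a difference of -0.23 (limma adjusted p = 0.161), or without the CWR22Rv1 scramble array of the second replicate, with -0.38 (limma adjusted p = 0.0755). DU145 scramble cells therefore had the higher AXL, GAS6, PROS1 and, on 1 probe set of 3, MERTK. The 4 fibroblast markers averaged 5.45 to 5.60 on the CWR22Rv1 scramble arrays and 3.98 to 4.11 on the DU145 scramble arrays, with LUM at 8.12 in CWR22Rv1 and 2.56 in DU145 and COL1A2 at 4.45 in CWR22Rv1 and 4.38 in DU145, and their part in the line differences was not tested. In bulk RNA, fewer cells of a type and less RNA per cell cannot be told apart.

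Ordered by group mean on 202686_s_at, AXL was lowest with Stat3 siRNA in CWR22Rv1 (3.49), then Stat5a/b siRNA in CWR22Rv1 (3.55), scramble in CWR22Rv1 (5.03), Stat5a/b siRNA in DU145 (11.43), scramble in DU145 (12.05) and Stat3 siRNA in DU145 (12.07). The first pair overlapped, as did the neighbours within DU145. The line difference was thus larger than any siRNA difference on this probe set. TYRO3 ran from 7.12 with Stat5a/b siRNA, 7.30 with scramble and 7.45 with Stat3 siRNA in DU145 to 7.74 with scramble, 7.78 with Stat5a/b siRNA and 7.79 with Stat3 siRNA in CWR22Rv1. MERTK means spanned 6.15 to 6.20 in CWR22Rv1 and 6.62 to 6.81 in DU145, with every neighbour within a line overlapping. GAS6 ran from 6.93 with Stat3 siRNA, 7.04 with scramble and 7.19 with Stat5a/b siRNA in CWR22Rv1 to 9.06 with Stat5a/b siRNA, 9.14 with scramble and 9.23 with Stat3 siRNA in DU145. PROS1 ran from 8.70 with Stat3 siRNA, 8.73 with Stat5a/b siRNA and 8.82 with scramble in CWR22Rv1 to 9.10 with Stat5a/b siRNA, 9.20 with Stat3 siRNA and 9.39 with scramble in DU145. On the probe set that stands for each gene, the arrays of the lines did not overlap for TYRO3, GAS6 and PROS1. For MERTK they did, since the highest CWR22Rv1 array, with Stat5a/b siRNA, read 6.42 and the lowest DU145 array, with scramble, read 6.36. No test of the difference between lines in siRNA effect passed for the other members: 0 of 4 for Stat3 siRNA, where 3.00% of all genes passed, and 0 of 4 for Stat5a/b siRNA, where 11.9% passed. For Stat5a/b siRNA those differences were 0.22 for TYRO3, -0.21 for MERTK, 0.23 for GAS6 and 0.20 for PROS1, with limma adjusted p between 0.164 and 0.597.

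Genes reported as upstream regulators of AXL were read next, with rose and fell used of those at a limma adjusted p under 0.05. With Stat5a/b siRNA in DU145, 5 of 14 rose and 1 fell, with a median change of 0.23 beside 0.011 over all genes, of which 24.3% passed in either direction. YAP1, the coactivator whose TEAD complexes are reported to drive AXL transcription, rose by 0.78 (limma adjusted p = 2.21e-06), and its DNA-binding partners TEAD1 and TEAD4 rose by 0.39 and 0.49. WWTR1, the YAP1 paralogue known as TAZ, fell by 0.41. In CWR22Rv1, Stat5a/b siRNA gave the same directions for this pair, YAP1 rising by 0.47 (limma adjusted p = 0.00118) and WWTR1 falling by 0.58 (limma adjusted p = 5.04e-05). These were the 2 genes of 14 that passed, where 6.46% of all genes passed. With Stat3 siRNA in CWR22Rv1, where 4.77% of all genes passed, 1 of 14 passed, YAP1, which fell by 0.34 (limma adjusted p = 0.0173).

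With Stat3 siRNA in DU145, 4 of 14 rose and 0 fell, where 15.8% of all genes passed. They were ZEB1, a repressor of epithelial genes (0.64), FOSL1, a subunit of AP-1 (0.78), SNAI2 (0.67) and the intermediate filament gene VIM (0.22). The AXL change in that comparison was 0.025. The mean of the 4 epithelial markers ranged from 10.8 to 10.9 on the DU145 Stat3 siRNA arrays and from 11.3 to 11.4 on the DU145 scramble arrays. On the DU145 Stat5a/b siRNA arrays the mean ranged from 10.89 to 10.93. Of the 4, CDH1 and EPCAM fell with both siRNAs in DU145, by 1.18 and 0.40 with Stat5a/b siRNA and by 0.98 and 0.49 with Stat3 siRNA. The part of these changes in the list's counts was not tested. Of 8 other genes reported as YAP and TEAD targets, 0 rose and 1 fell (AMOTL2, by 0.27) in CWR22Rv1 cells given Stat5a/b siRNA, where 6.46% of all genes passed. In DU145 cells given Stat5a/b siRNA, 1 rose (NT5E, by 0.49) and 0 fell, where 24.3% of all genes passed. With Stat3 siRNA in CWR22Rv1, 0 rose and 1 fell (F3, at -0.34), where 4.77% of all genes passed. With Stat3 siRNA in DU145, 1 of the 8 rose and 3 fell, with CCN2 falling by 0.59 and LATS2 by 0.48.

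**Figure D4:**
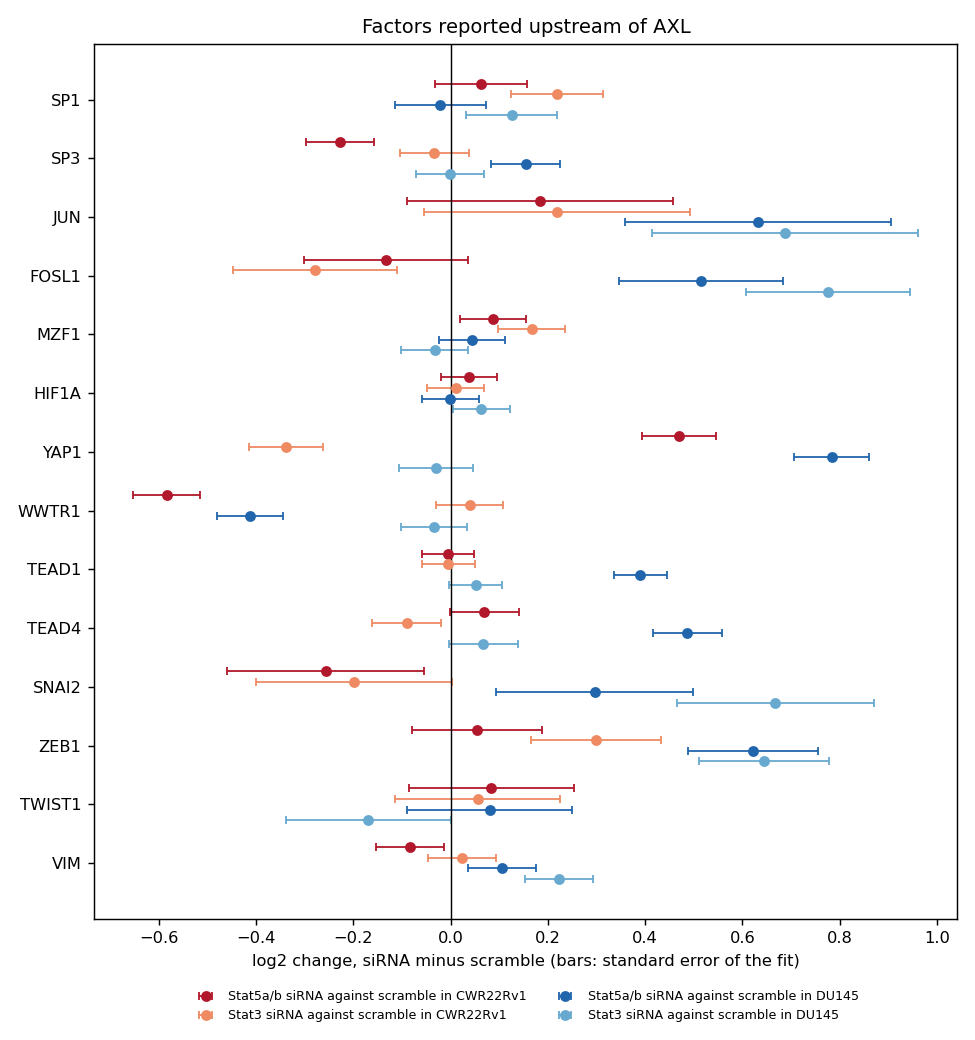
Log2 change against scramble of 14 genes reported upstream of AXL, with the standard error of the limma fit as bars, in the 4 siRNA comparisons. With Stat5a/b siRNA, YAP1 lies at 0.47 and WWTR1 at -0.58 in CWR22Rv1, and at 0.78 and -0.41 in DU145.

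Signalling partners of the receptors were read as a list. Of 19 measured signalling partners and adaptors, 1 rose and 0 fell with each siRNA in CWR22Rv1. These were the adaptor NCK2 with Stat5a/b siRNA (0.22) and AKT2, the survival kinase, with Stat3 siRNA (0.29). The shares of all genes that passed there were 6.46% with Stat5a/b siRNA and 4.77% with Stat3 siRNA. In DU145, 1 rose and 0 fell with Stat5a/b siRNA (PLCG1, 0.20), where 24.3% of all genes passed. With Stat3 siRNA in DU145, where 15.8% of all genes passed, 2 rose and 2 fell. Those 4 included AKT2 at 0.29 and CBLB, a paralogue of the ubiquitin ligase CBL, at -0.38. The ubiquitin ligase CBL, which marks activated AXL for degradation, had changes between -0.15 and 0.16 against scramble and passed in none of those 4 comparisons, and was lower with Stat5a/b than with Stat3 siRNA in CWR22Rv1 (-0.31, limma adjusted p = 0.0185).

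ADAM10 and ADAM17 are the proteases reported to cleave AXL and MERTK from the surface. ADAM17 rose in CWR22Rv1 with Stat5a/b siRNA (0.36) and Stat3 siRNA (0.32), and in DU145 with Stat3 siRNA (0.38). ADAM10 fell by 0.35 with Stat5a/b siRNA in DU145 (limma adjusted p = 0.00045). RAC1, the GTPase that drives the engulfing cup, rose in all 4 comparisons against scramble, by 0.32 to 0.43. Of the 16 measured genes of this list, 3 rose and 2 fell with Stat5a/b siRNA and 3 rose and 1 fell with Stat3 siRNA in CWR22Rv1. In DU145, 2 rose and 6 fell with Stat5a/b siRNA, with a median of -0.060 beside 0.011 over all genes, and 4 rose and 2 fell with Stat3 siRNA. Of all genes, 24.3% passed with Stat5a/b siRNA and 15.8% with Stat3 siRNA in that line. The corresponding shares for CWR22Rv1 were 6.46% for the Stat5a/b reagent and 4.77% for the Stat3 reagent. ELMO2, a RAC1 activator subunit, fell by 0.66 and TUB, reported as a bridging molecule for MERTK in mouse, fell by 0.54 with Stat5a/b siRNA in DU145.

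The ligands need vitamin K-dependent carboxylation. GGCX, the carboxylase, and VKORC1, the reductase that recycles vitamin K, passed in no comparison against scramble, with changes between -0.11 and 0.13, and in none between the siRNAs, where GGCX had a difference of -0.20 in CWR22Rv1 (limma adjusted p = 0.0768) and -0.12 in DU145. The VKORC1 paralogue VKORC1L1 rose with Stat3 siRNA in both lines, by 0.21 in CWR22Rv1 and 0.44 in DU145, and with Stat5a/b siRNA in DU145, by 0.23. CALU, a calcium-binding protein reported to restrain carboxylation, fell with Stat5a/b siRNA in both lines, by 0.47 in CWR22Rv1 (limma adjusted p = 0.000523) and by 0.71 in DU145 (limma adjusted p = 2.33e-06). NQO1, a quinone reductase, rose by 0.94 with Stat5a/b siRNA in CWR22Rv1 and fell by 0.31 with Stat3 siRNA in DU145. Of 8 measured genes of this list, 1 rose and 1 fell with Stat5a/b siRNA and 1 rose and 0 fell with Stat3 siRNA in CWR22Rv1, and in DU145 1 rose and 2 fell with Stat5a/b siRNA and 1 rose and 1 fell with Stat3 siRNA. Of 11 other Gla-domain genes, PRRG1, a transmembrane Gla protein, fell by 0.82 in CWR22Rv1 and coagulation factor F10 fell by 0.41 in DU145 with Stat5a/b siRNA, and 0 passed with Stat3 siRNA in either line. Beside both lists, the shares of all genes that passed with Stat5a/b siRNA were 6.46% in CWR22Rv1 and 24.3% in DU145. With Stat3 siRNA they were 4.77% in CWR22Rv1 and 15.8% in DU145.

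Of 23 other receptor tyrosine kinases measured, 0 passed with either siRNA in CWR22Rv1. In DU145, 1 rose and 3 fell with Stat5a/b siRNA and 5 rose and 2 fell with Stat3 siRNA. Of all genes, 6.46% passed in CWR22Rv1 cells given Stat5a/b siRNA and 4.77% in those given Stat3 siRNA, while 24.3% passed in DU145 cells given Stat5a/b siRNA and 15.8% in those given Stat3 siRNA. The siRNA effect was also compared between the lines, as CWR22Rv1 minus DU145, gene by gene. With Stat5a/b siRNA 4 of the 23 passed as higher and 1 as lower, where 11.9% of all genes passed. With Stat3 siRNA 1 passed as higher and 1 as lower, where 3.00% of all genes passed. MST1R, the receptor for macrophage-stimulating protein, fell by 0.67, EPHB4 by 0.42 and ERBB2 by 0.33, and the collagen receptor DDR2 rose by 0.58, with Stat5a/b siRNA in DU145. MET, the hepatocyte growth factor receptor, rose by 0.56 and KIT by 0.87 with Stat3 siRNA in DU145, where FGFR3 and FGFR4 fell by 0.53 and 0.38. The list's median change with Stat5a/b siRNA in DU145 was -0.052 beside 0.011 over all genes. In the same comparison the medians were -0.018 for the signalling partners, -0.088 for the vitamin K list, -0.067 for the other Gla-domain genes and -0.044 for the YAP and TEAD targets.

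Genes most like AXL were found among 2761 genes whose group means ranged over at least 0.5 within a line, by Pearson correlation with 202686_s_at over the 18 arrays after each line's mean was removed. The most alike were SLITRK4 (r = 0.83), BRINP3 (0.80), GALC (0.78), HLA-DQB1 (0.76) and PPP2R2B (0.75). The most opposite were SEC23A (-0.84), IRF2 (-0.82), ESRP1 (-0.79), SAXO5 (-0.78) and ABHD15 (-0.77). Within DU145 alone r was 0.36 for SLITRK4 and -0.31 for SEC23A, and within CWR22Rv1 alone it was 0.93 and -0.98, so both rest mostly on the CWR22Rv1 arrays. All points share the arrays and their scaling, and the correlations describe these 18 arrays only. TYRO3, MERTK, GAS6 and PROS1 ranged over less than 0.5 within each line and were not ranked in this way.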

How the data were processed

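Labelled RNA from 18 samples was hybridised to Affymetrix U133 Plus 2.0 arrays, per the labels. The deposited values are log2 intensities, made with RMA per the submitters' processing notes, which also name limma; versions are not given in the sources used here. Of 54675 probe sets, 41091 had 1 symbol, 1801 several, 11721 none, and 62 were controls. Each of 19775 genes was represented by its probe set of highest mean. Group means were fitted with limma 3.58.1 in R 4.3.3 (lmFit, eBayes, all 6 groups, 12 residual degrees of freedom), p-values were Benjamini-Hochberg adjusted over all genes per comparison, and genes with adjusted p under 0.05 passed. Single probe sets were fitted over 54613. The fit was tested on simulated data. The number of arrays limits the precision. Genes named were the members, the siRNA targets and, per list and siRNA comparison, up to 4 that passed with the smallest adjusted p, plus named genes of interest such as CBL, GGCX and VKORC1. Deviations from the group means of same-numbered arrays correlated at 0.16 to 0.33 for Stat3 siRNA and scramble in DU145, so the numbers were taken to pair those samples, and not in other comparisons, where correlations ran from -0.067 to 0.17. Members and lists were chosen with earlier results of these data known. Alternatives were another probe set rule, 2 rescalings, a filter on dim genes, lines fitted alone, the replicate number as a block, and leaving out arrays.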

Additional observations from a re-analysis of the deposited data

Results flagged for a closer look

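The Stat5a/b siRNA change differed in direction between the lines for TYRO3 and GAS6 on the probe set that stands for each gene, and on no second probe set of either. For TYRO3 the Stat5a/b effect in CWR22Rv1 minus that in DU145 was 0.22, since each Stat5a/b array lay above the scramble mean in CWR22Rv1 and below it in DU145. GAS6 showed the same pattern with a difference of 0.23. The interaction test passed for neither gene (limma adjusted p = 0.230 for TYRO3 and 0.207 for GAS6). The second probe sets had negative values in both lines: TYRO3 211431_s_at had changes of -0.041 in CWR22Rv1 and -0.37 in DU145, and GAS6 202177_at had changes of -0.26 in CWR22Rv1 and -0.12 in DU145, none of which passed.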

How the results depend on the processing

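Limits were 3 arrays per group, no detection calls among the values used, and AXL near or below the median of all values in CWR22Rv1. With the mean of all probe sets of a gene, the AXL change in CWR22Rv1 was -0.83 with Stat3 siRNA and -0.77 with Stat5a/b siRNA. The AXL change was -5.00 between the scramble groups, -0.89 for the Stat3 effect in CWR22Rv1 minus DU145 and -0.26 for the Stat5a/b one. Counted over all comparisons and their alternatives together, 111 of 116 AXL values stayed within the spread. Apart from that mean, the alternatives with a value read AXL on the same single probe set. The count therefore does not measure how far the AXL result depends on the probe set. AXL, TYRO3 and PROS1 have no probe set without the suffixes _x_at and _s_at, so that alternative gave no value for them.

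Of the 4 tested members, 1 passed with Stat3 siRNA in DU145 (PROS1) when dim genes were left out and with the replicate block (adjusted p = 0.0281 and 0.0473), and leaving out 1 array gave 0 to 1, TYRO3 passing without Stat3 siRNA replicate 2 (adjusted p = 0.0328). Between the siRNAs in DU145, 0 passed with the line fitted alone (TYRO3 adjusted p = 0.0692). Between the siRNAs in CWR22Rv1, 1 passed (GAS6) with quantile scaling, cyclic loess, dim genes left out, the replicate block or the line fitted alone (adjusted p 0.00977 to 0.0293). PROS1 with Stat5a/b siRNA in DU145 passed in all of its alternatives (adjusted p 0.00132 to 0.0300).

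The MERTK line difference turned to 0.10 without _x_at and _s_at probe sets (adjusted p = 0.473) and did not pass with the mean of probe sets (-0.19), without DU145 scramble replicate 3 (-0.23) or without CWR22Rv1 scramble replicate 2 (-0.38). The share of all genes that passed ranged, with Stat5a/b siRNA, from 3.63% (without scramble replicate 1) to 12.0% (line fitted alone) in CWR22Rv1 and from 14.5% (line fitted alone) to 37.0% (dim genes left out) in DU145. With Stat3 siRNA it ranged from 2.27% (without scramble replicate 3) to 10.4% (line fitted alone) in CWR22Rv1, where leaving out any 1 of the 6 arrays gave 2.77% or less, and from 7.83% (line fitted alone) to 25.5% (dim genes left out) in DU145. Between the siRNAs it ranged from 7.02% to 19.1% in CWR22Rv1 and from 12.0% to 34.1% in DU145, and for the differences between lines from 8.48% to 21.0% with Stat5a/b siRNA and from 1.48% to 6.23% with Stat3 siRNA. For the comparisons other than Stat3 siRNA against scramble in DU145, at least 1 same-numbered pair of arrays correlated under 0.1 in the deviations from the group means, so the numbers were not taken to pair those samples; besides the calls above, the replicate block moved the Stat3 line difference to 4.57% of all genes. The causes of these changes with the settings were not tested.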

Other observations

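GAS6-AS1, an antisense transcript at the GAS6 locus, was read after its values were seen, on its 2 probe sets. The first, 238127_at, is given in full. In CWR22Rv1 that probe set read 7.47, 7.39 and 7.23 with Stat5a/b siRNA, 7.36, 7.25 and 7.28 with Stat3 siRNA, and 7.25, 7.49 and 7.62 with scramble siRNA. In DU145 it read 4.11, 3.76 and 4.05 with Stat5a/b siRNA, 4.12, 4.25 and 4.28 with Stat3 siRNA, and 5.09, 4.95 and 4.92 with scramble siRNA. All 6 DU145 arrays with a STAT siRNA lay below the 3 DU145 scramble arrays, and the CWR22Rv1 groups overlapped. The second, 238097_at, did not show the DU145 difference, with 4.73 to 5.06 with Stat5a/b siRNA, 5.05 to 5.20 with Stat3 siRNA and 4.79 to 4.87 with scramble siRNA, and it read 5.73 to 6.20 on the CWR22Rv1 arrays. On both probe sets GAS6-AS1 was higher in CWR22Rv1 than in DU145, the opposite of GAS6 on both of its probe sets.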
